A study of Oryza sativa with 10 samples.

Results

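The net change of open chromatin after 24 h of light was described in rice (Oryza sativa) seedlings by comparing 2 ATAC-seq peak lists of seedlings that had spent 24 h in light after the dark with 2 lists of seedlings still in the dark. ATAC-seq marks accessible DNA by the cuts of the transposase Tn5. According to the methods of the study, whole seedlings of the indica cultivar YD6 were germinated in darkness at one temperature, and the light group then stood under light in a growth chamber, so that both groups share the cultivar and the dark germination. The dark seedlings were sampled at 3 d, as the start of the time course, and the light seedlings a day later. No dark group of the later age was compared, so light and a day of age cannot be told apart. These 4 lists were taken from a series of 10, which also holds lists after 8 h of light and after sprays of abscisic acid (ABA) or indole-3-acetic acid (IAA, an auxin). Peaks of the 4 lists that overlapped by 1 bp or more were merged into sites. This gave 28598 sites, against 33382 when all 10 lists were merged. A site was gained when both 24 h lists and neither dark list had a peak there, lost in the converse case, and kept when all 4 lists had one.

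A seedling grown in the dark elongates and holds undeveloped plastids, a programme called skotomorphogenesis. Light perceived by phytochromes and cryptochromes switches it to photomorphogenesis, in which leaves expand, chlorophyll is made and chloroplasts mature. Accessible sites of plants are short stretches, mostly near genes, where nucleosomes are displaced and transcription factors can bind. Sites are given here by their position in the MSU7.0 genome, the build named in the methods. A gene annotation of that build was not used here, so genes at the sites are not named and no sequence is shown. Whole seedlings mix many cell types, so fewer cells with an open site and less opening per cell cannot be told apart.

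The dark lists held 24150 and 25302 peaks and the 24 h lists 19746 and 18111. The covered length was 5.99 and 6.25 Mb in the dark and 5.10 and 4.63 Mb at 24 h. The height of a peak is given here as its pileup, the whole number of tags over the summit, which was solved from the fold and the −log10 p-value of each peak. The lists do not give the depth of the libraries in reads. The study's own summary orders the peak totals of the light and dark libraries the other way round from these lists, while its read totals are larger for the light libraries, the same order as the floors given next. Each direction below follows the labels of the lists. The lowest background of a list, its floor, was 3.10 and 3.20 tags in the dark lists and 4.17 and 4.25 tags in the 24 h lists, a ratio of 1.34 between the group means. Where summits of a dark and a 24 h list fell on the same base above the floor, at 284 to 307 sites a pair, the background in units of the floor was equal within 1% at 100% of them. The lists thus carry one common background profile at different scales, and the floor is not a background measured in each library. A call at the floor therefore needed 11 tags in each dark list but 13 and 14 tags in the 24 h lists.

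The lists of one group, which the study describes as biological replicates, were nearly the same list. The chi-square of their pileups per shared site was 0.0792 between the dark lists and 0.0698 between the 24 h lists, against 0.644 to 0.673 between lists of different groups. Independent counts give a value near 1, which was not reached between groups either, so the pileups at shared sites spread less than such counts. Summits coincided to the base at 43.6% of the sites shared by the dark lists and at 46.1% for 24 h, against 3.19% to 3.56% between groups. The lists of a group differed far less than independent counts, and far less than lists of different groups, which also differ in treatment. They were therefore counted as 1 sample, and why they lie so close was not tested. Each group has n = 1, no difference below has a replicate check, so p-values and SDs are not given. Intervals are 95% intervals that cover counting error only. Those of shares and medians treat sites as independent and each call as fixed, so they do not cover the spread between seedlings.

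Far more sites were lost than gained in the lists as deposited. Of the 28598 sites, 6017 were lost, which is 21.0% of all sites, and 1432 were gained, which is 5.01%. Another 15192 sites (53.1%) were kept. Lost sites made up 80.8% of the changed sites (Wilson interval 79.9% to 81.7%). They were 26.5% of the 22717 sites in both dark lists, while gained sites were 8.29% of the 17267 sites in both 24 h lists. The remaining 5957 sites (20.8%) fell in no class. Among them, 2457 were called in 1 dark list only, 1508 in both dark lists and 1 of the 24 h lists, 1048 in 1 24 h list only, 643 in both 24 h lists and 1 dark list, and 301 in 1 list of each group. Without the second 24 h list, whose 18111 peaks were the fewest, 2290 sites counted as gained, since presence then rested on the first 24 h list alone.

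The changed sites were low peaks. The median pileup of lost sites was 19 tags in each dark list, with 15 tags at the tenth percentile of each list. Gained sites had a median of 20 tags in each 24 h list. Kept sites had medians of 26 and 27 tags in the dark lists and 27 tags in each 24 h list. The highest pileup at a gained site was 113 and 117 tags in the 24 h lists, and at a lost site 63 and 65 tags in the dark lists.

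Ranked by the lower −log10 q of the lists, the strongest gained site lay at chr11:12122353-12123502, with 113 and 117 tags in the 24 h lists. At its background, each dark list needed 11 tags for a call. It was 1150 bp wide, and both lists of 8 h and of ABA and 1 IAA list also had a peak there. The next pair were neighbours on chromosome 3. The wider, chr3:19245361-19248177 had 99 and 102 tags, and the narrower, chr3:19244074-19244583 had 90 and 92 tags, where the dark lists needed 17 to 18 tags. The 8 h and ABA lists all had a peak at both, the IAA lists at neither. The kept site beside them at chr3:19243472-19243914 had 31 tags in each dark list and 28 and 25 tags at 24 h, so the gain was not shared by its nearest neighbour.

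Several changes stood side by side on chromosome 2. The gained sites at chr2:28865471-28865871, with 46 and 47 tags, and at chr2:28863639-28864072, with 43 and 44 tags, were both among the 8 strongest. A call needed 11 and 15 tags there in the dark lists. Next to them, the kept site at chr2:28866472-28867323 had 20 and 19 tags in the dark and 43 and 44 tags at 24 h, and its summit lay 600 bp from that in the dark. On the other side, the kept sites at chr2:28862778-28863159 and at chr2:28861994-28862462 had 28 and 26 tags and 27 and 24 tags in the dark, against 28 and 29 tags and 19 and 22 tags at 24 h. The groups thus met at 28 tags at the first of them and were lower at 24 h at the second. As on chromosome 3, every 8 h and ABA list had a peak at both gained sites and no IAA list did.

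The other 3 of the 8 strongest gained sites were near 45 tags. One at chr11:12266497-12266705 had 45 tags in each 24 h list and lay 124250 bp from the nearest kept site. One at chr1:26088117-26088865 had 45 and 41 tags. One at chr10:2755934-2756097 had 44 and 47 tags. Every 8 h and ABA list had a peak at all 8 strongest gained sites, whereas 5 of the 8 had none in either IAA list. Over all 1432 gained sites, both lists had a peak at 43.9% for 8 h, 17.2% for ABA and 50% for IAA. The order of ABA and IAA at the 8 strongest sites was thus not that of the class.

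**Figure D1:**
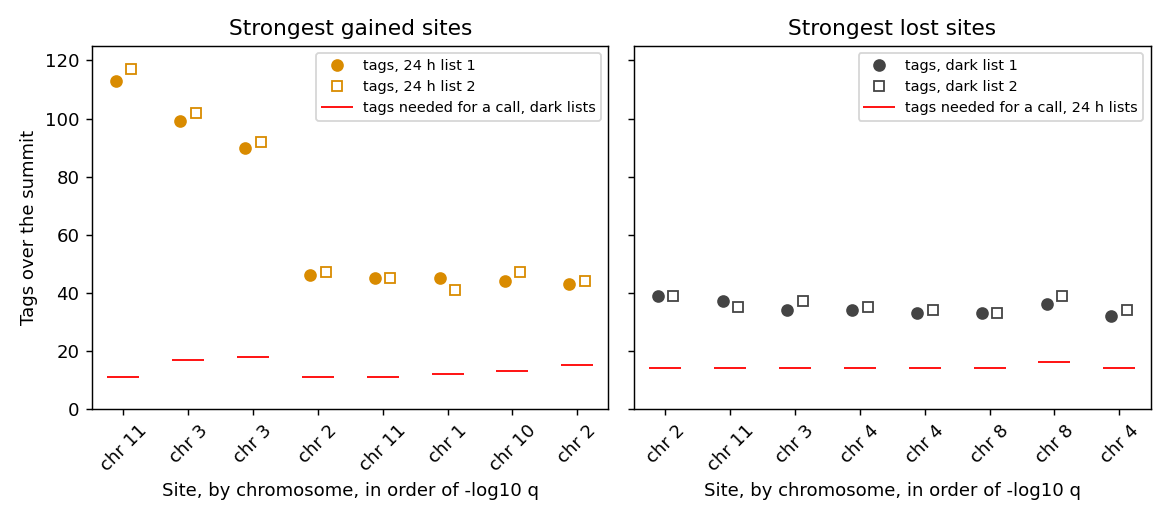
Tags over the summit (vertical axis) at the 8 strongest gained sites (left, 24 h lists) and the 8 strongest lost sites (right, dark lists), ranked by the lower −log10 q of the lists. Filled circles are list 1, open squares list 2, and red bars the tags that a call would have needed in the other group. The first 3 gained sites have 90 to 117 tags, and the lost sites have 32 to 39 tags.

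The 8 strongest lost sites by the same ranking, which sets height against local background, had between 32 and 39 tags in the dark lists. The first, at chr2:12006635-12006806, had 39 tags in each dark list, where the 24 h lists needed 13 and 14 tags. It was called in both IAA lists and in no list of 8 h or ABA. Next was a site at chr11:13201428-13201640, with 37 and 35 tags, which lay 265053 bp from the nearest kept site. A site at chr3:23220782-23220968 had 34 and 37 tags.

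The remaining lost sites of this set lay on chromosomes 4 and 8. On chromosome 4 there were 3, namely chr4:4744465-4744813 with 34 and 35 tags, chr4:8303895-8304149 with 33 and 34 tags, and chr4:23643770-23643902 with 32 and 34 tags. On chromosome 8 there were 2, namely chr8:10090958-10091165 with 33 tags in each list and chr8:2077240-2077370 with 36 and 39 tags. Of the 8 sites, 7 had a peak in both IAA lists, 4 in both ABA lists and 2 in both 8 h lists. Over all 6017 lost sites, these shares were 35.7% for IAA, 11.4% for ABA and 26.2% for 8 h. The last of the chromosome 4 sites was the one without an IAA peak, and both ABA lists had it. Since the IAA and ABA seedlings had been in light too, all 8 had peaks in some light-grown group.

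The size of the net loss turned on the scale of height. The dark lists needed fewer tags for a call, while the median pileup at kept sites was almost the same in all 4 lists. One common limit was therefore set at each site, from the local background and the list that needed the most, and was applied to all lists alike. With heights scaled to the median pileup of kept sites, 4987 sites were lost and 1753 gained, a share of 74.0% lost (72.9% to 75.0%). When sites had to reach 1.5 times the limit in both lists of one group and stay under the limit in the other, 829 were lost and 406 gained, a share of 67.1% (64.5% to 69.7%). When the limit itself was raised to 1.5 times for both groups, 1991 sites were lost and 2167 gained, a share of 47.9% (46.4% to 49.4%), and kept sites fell from 14686 to 8125, so that sites called in both groups could then count as changed. With heights scaled to the background floor, the shares under these 3 rules were 83.6%, 93.6% and 93.3%. Loss thus outnumbered gain on both scales except where the limit was raised to 1.5 times or more relative to kept sites, where the classes were nearly even. Which scale holds cannot be told apart in these lists.

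**Figure D2:**
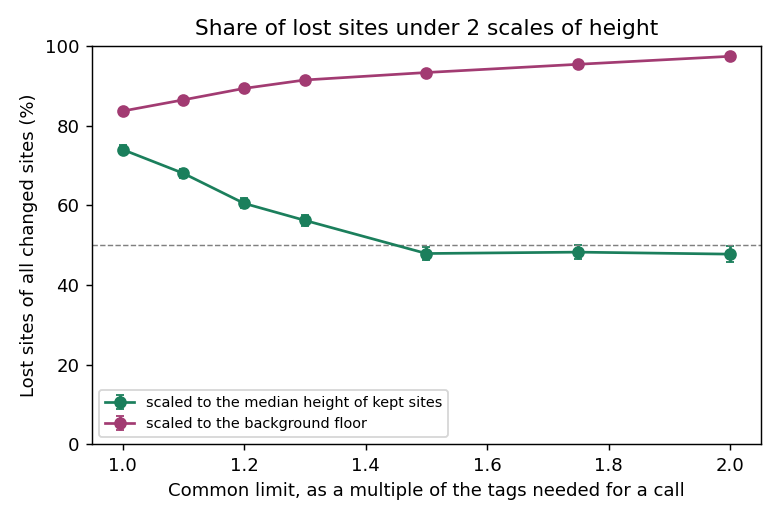
Share of lost sites among changed sites (vertical axis, percent) against the common limit in multiples of the tags needed for a call (horizontal axis), with Wilson intervals as bars. Heights scaled to kept sites go from 74.0% to 47.7% lost as the limit rises to 2 times, and heights scaled to the background floor go from 83.6% to 97.4%. The dashed line marks an even split.

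The lists outside the comparison gave a reading that the classes did not use. Of the 6017 lost sites, 2319 (38.5%) had no peak in any of the 6 lists of 8 h, ABA and IAA. Both IAA lists had a peak at 2150 lost sites (35.7%), both 8 h lists at 1574 (26.2%) and both ABA lists at 686 (11.4%). Of the 1432 gained sites, both IAA lists had a peak at 716, both 8 h lists at 628 (43.9%) and both ABA lists at 246 (17.2%). Only 287 gained sites (20.0%) had no peak in any of the 6 lists. Kept sites were called in both lists at 92.7% with IAA, 88.6% at 8 h and 68.1% with ABA. Gained sites were thus called in the other light groups more often than lost sites, by more than the counting intervals. The numbers of peaks in these lists differ, from 12659 in an ABA list to 23778 in an IAA list, and their part in these shares was not tested.

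In the lists as deposited, loss prevailed on every chromosome, but not to the same degree. The share of dark sites that were lost ran from 23.6% on chromosome 3 (22.1% to 25.2%) and 24.7% on chromosome 2 to 29.6% on chromosome 10 and 31.7% on chromosome 11 (28.9% to 34.7%). On the other 8 chromosomes it lay between 25.8% and 27.7%, and their intervals overlapped. The share of 24 h sites that were gained was highest on chromosome 3, at 9.55% (8.44% to 10.8%), and lowest on chromosome 12, at 6.44% (5.05% to 8.19%). On chromosome 3 there were 3.04 lost sites for each gained site, on chromosome 11 there were 6.83. Chromosome 3 also held the most kept sites per Mb, 56.6, and chromosome 11 the fewest, 21.3. The sequences ChrSy and ChrUn together held 6 gained, 7 lost and 20 kept sites.

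The loss also varied with the density of sites. The 379 windows of 1 Mb were ranked by their number of sites in the 8 h, ABA and IAA lists, which took no part in the classes, and split into 4 equal groups. In the windows with the fewest sites, 31.8% of dark sites were lost (30.0% to 33.8%), then 29.5% and 26.3%, and in the windows with the most sites 23.6% (22.7% to 24.5%). The share of gained sites went the other way, from 5.89% (4.82% to 7.18%) to 9.51% (8.86% to 10.2%). Of all gained sites, 6.31% lay in the sparsest windows, of kept sites 9.28%, and of lost sites 12.1%, and these intervals did not overlap. The strongest gained sites went against this order. The strongest one on chromosome 11 and the neighbours on chromosome 3 lay in the sparsest windows. So did the sites at chr11:12266497-12266705 and chr10:2755934-2756097, while the rest of the 8 strongest lay in denser windows. Since the 6 ranking lists all come from seedlings in light, the windows were also ranked on the dark lists, a choice made after the data had been seen. The lost share then fell from 30.9% to 24.6% from the sparsest to the densest windows, and the gained share was 6.98% (5.81% to 8.36%) and 8.41% (7.79% to 9.07%), with intervals that overlapped. Ranked within each chromosome, again after the data had been seen, the lost share fell from 30.2% (28.6% to 31.9%) to 24.3% (23.4% to 25.2%) and was higher in the sparser windows on 12 of 12 chromosomes. The gained share was 6.07%, 8.79%, 7.73% and 9.03% from sparse to dense, and was higher in the denser windows on 8 of 12 chromosomes.

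Kept sites showed the same order in their heights. The median ratio of height scaled to kept sites, 24 h over dark, was 0.957 in the sparsest windows (0.942 to 0.968), 0.981 and 1.05 in the next groups, and 1.08 in the densest windows (1.07 to 1.09). Ranked on the dark lists, the ratio went from 0.953 to 1.07, and ranked within chromosomes from 0.960 to 1.07. Scaled to the floor it was below 1 throughout, from 0.729 to 0.822, in the same order. The order also held at the limit of 1.5 times the call need. There lost sites were 71.0%, 65.0%, 45.5% and 34.3% of the changed sites from sparse to dense windows with heights scaled to kept sites, and 96.2%, 95.7%, 93.2% and 90.8% with heights scaled to the floor. The intervals of the sparsest and the densest windows did not overlap on either scale, while the level of loss differed between the scales. The windows differ in the number of sites by construction.

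**Figure D3:**
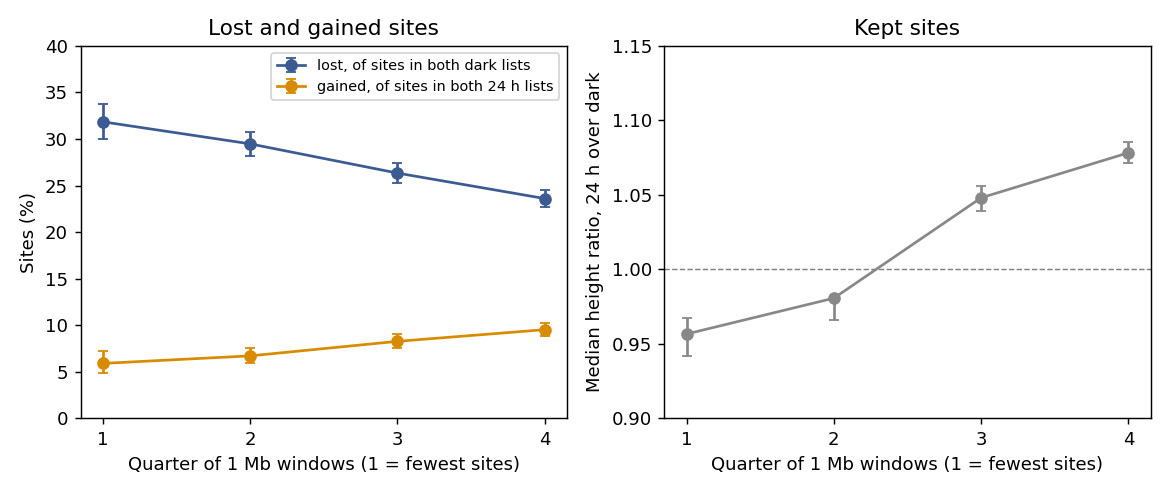
Lost and gained sites (left, percent of the sites in both lists of the group) and median height ratio of kept sites, 24 h over dark, scaled to kept sites (right), in 4 groups of 1 Mb windows from the fewest to the most sites, with 95% intervals as bars. Lost sites fall from 31.8% to 23.6%, gained sites rise from 5.89% to 9.51%, and the height ratio rises from 0.957 to 1.08.

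The gained share was higher near chromosome ends, although most gained sites lay elsewhere (299 near the ends, 1127 elsewhere). Within 2 Mb of the first or last base of a chromosome that any list reached, 10.9% of the 24 h sites were gained (9.81% to 12.2%), against 7.77% elsewhere (7.35% to 8.22%). The lost share was 25.8% near the ends (24.4% to 27.3%) and 26.6% elsewhere (26.0% to 27.2%), so the difference in loss lay within counting error. Of the 379 windows, 368 had more lost than gained sites, 6 had equal numbers and 5 had more gained. The most gained sites, 16, lay on chromosome 2 from 27 to 28 Mb, beside 20 lost sites, followed by 14 each on chromosome 3 from 1 to 2 Mb and on chromosome 10 from 21 to 22 Mb. The most lost sites, 39, lay on chromosome 2 from 19 to 20 Mb, followed by 37 each on chromosome 5 from 7 to 8 Mb and from 16 to 17 Mb. In the last 2 windows only 1 site each was gained.

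Lost sites had lost neighbours, and gained sites gained neighbours, more often than other sites did. Most neighbours were kept sites, 50.7% next to a lost site and 52.3% next to a gained site. Over all sites, 21.0% were lost and 5.01% gained. Of the sites next to a lost site along the chromosome, 25.1% were lost, against 20.1% of those next to a kept site and 15.2% of those next to a gained site. Of the sites next to a gained site, 11.1% were gained, against 4.93% next to a kept site and 3.62% next to a lost site. There were 284 unbroken runs of at least 3 lost sites and 21 of at least 3 gained sites. Lost sites were also the more frequent class, and the number of runs to be had from the shares over all sites was not worked out.

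The longest gained run, of 7 sites, lay at chr9:3048495-3062701. The pileups in the 24 h lists ran from 16 tags at the last site to 29 and 28 tags at the second site at chr9:3054932-3055165. No site of the run was called at 8 h, and 3 of the 7 were called in both IAA lists. Of the kept sites that follow the run, the site at chr9:3062865-3063042 had 26 and 29 tags in the dark and 24 and 27 tags at 24 h. The site after it at chr9:3064377-3064782 had 22 and 17 tags in the dark and 43 and 47 tags at 24 h. Its ratio was 2.26 scaled to kept sites and 1.72 scaled to the floor. The groups overlapped at the first of these kept sites and did not at the second.

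The longest lost run, of 8 sites, spread over 56.1 kb at chr1:1348733-1404836. Its sites had 15 to 24 tags in the dark lists. A denser run of 7 lost sites lay within 5.32 kb at chr1:29909637-29914954. Its highest site at chr1:29911208-29911702 had 28 tags in each dark list and a peak in 1 of the 8 h lists. The other 6 had 14 to 23 tags, and 1 of them was called in both IAA lists. The sites at chr1:29909637-29909792, with 14 and 15 tags where the 24 h lists needed 15 and 16, and at chr1:29910418-29910587, with 14 and 16 tags against 16, had a mean dark height of 0.953 and 0.954 times the 24 h need, scaled to kept sites. Scaled to kept sites, 5232 of the 6017 lost sites (87.0%) had a dark height above the need of the 24 h lists. The margin was small, with a median of 1.25 times the need over all lost sites, and 1192 (19.8%) reached 1.5 times. Scaled to the floor, the median was 1.64 times and 4061 (67.5%) reached 1.5 times. For gained sites against the need of the dark lists, the medians were 1.65 times scaled to kept sites and 1.26 times scaled to the floor. The kept site after the run at chr1:29915725-29916183 had 29 and 31 tags in the dark and 38 and 41 tags at 24 h, a ratio of 1.29 scaled to kept sites and 0.985 scaled to the floor.

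Changed sites were narrow. The median width was 159 bp for lost sites (157 to 161 bp), 164.5 bp for gained sites (161 to 169 bp) and 296 bp for kept sites (293 to 298 bp). Only 27 lost sites (0.449%) and 23 gained sites (1.61%) were 500 bp wide or more, against 2091 kept sites (13.8%). In all, lost sites covered 1.08 Mb, gained sites 0.278 Mb and kept sites 5.31 Mb. These are measures of merged sites. A kept site joins peaks from the lists of both groups, a changed site those of a single group only. The widths of kept and changed sites are thus not like measures. At kept sites with a single peak in each list, the median peak width was 245 and 252 bp in the dark lists. In the 24 h lists it was 232 and 219 bp, so part of the contrast may come from merging. The widest gained sites were the 2817 bp site on chromosome 3 and the 1150 bp site on chromosome 11 described above, and a site of 1129 bp at chr3:11718287-11719415, with 30 and 29 tags. The widest lost site, 1406 bp at chr2:5627438-5628843 had 29 and 31 tags in the dark lists. The next widest lost sites were 726 bp at chr2:19589136-19589861, and 699 bp at chr8:22126533-22127231.

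Gained sites lay closer to kept sites than lost sites did. The median distance to the nearest kept site was 3800 bp for gained sites (3428 to 4106 bp) and 5604 bp for lost sites (5386 to 5869 bp). From one kept site to the next it was 4712.5 bp (4604 to 4850 bp). Within 500 bp of a kept site lay 14.7% of gained sites, 7.69% of lost sites and 10.6% of kept sites. At the other extreme, 33.5% of lost sites and 23.1% of gained sites were 10 kb or more away from any kept site. The class with the more distant sites was also the one that was more frequent in sparse windows, and the 2 measures are not independent.

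**Figure D4:**
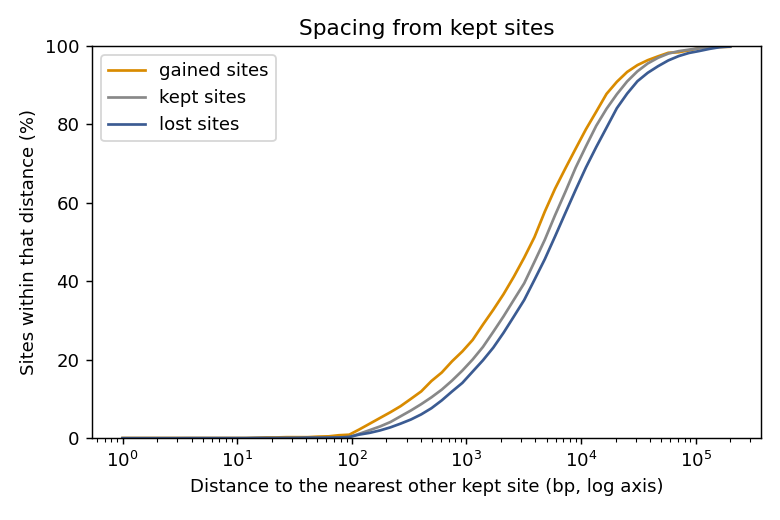
Share of gained, kept and lost sites (vertical axis, percent) within a given distance of the nearest other kept site (horizontal axis, bp on a log axis). The curve of gained sites lies to the left, with a median of 3800 bp, and that of lost sites to the right, with a median of 5604 bp.

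The height of most kept sites changed little. Of the 15192 kept sites, 14618 (96.2%) had a single peak in each list, and the following values refer to these. Relative to the median of each list, 586 sites (4.01%) were at least 1.5 times higher at 24 h and 319 (2.18%) at least 1.5 times lower. Only 22 were at least 2 times higher and 5 at least 2 times lower. At 26 tags in each group, near the median, counting error alone gives a ratio an interval of 0.558 to 1.79, so a change of 1.5 times at a single site of this height is within counting error. Scaled to the background floor, the median ratio was 0.792, and 26 sites were at least 1.5 times higher and 3114 lower, so this direction reversed with the scale.

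The largest rises, with heights scaled to kept sites, were between 2.33 and 2.74 times. Scaled to the floor, the same sites rose by 1.78 to 2.09 times. At chr1:33555794-33556004, the dark lists had 20 and 19 tags and the 24 h lists 55 and 54 tags, a ratio of 2.74 (1.56 to 4.67). At chr2:14269592-14269824, 17 and 18 tags in the dark stood against 48 and 45 tags at 24 h. The site at chr8:21445787-21446063 had 17 and 18 tags in the dark and 45 and 44 at 24 h. Also on chromosome 8, the site at chr8:9253645-9253853 had 22 and 23 tags in the dark and 55 and 56 at 24 h. At chr9:17189629-17190126, 16 tags in each dark list stood against 39 and 37 tags at 24 h. The groups did not overlap at any of these 5 sites, which were chosen for this difference, and all were called in both lists of 8 h, ABA and IAA.

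The largest falls, with heights scaled to kept sites, left ratios between 0.448 and 0.504. Scaled to the floor, the ratios of the same sites were 0.342 to 0.384. At chr2:11391021-11391288, the dark lists had 39 and 42 tags and the 24 h lists 19 and 18, a ratio of 0.448 (0.238 to 0.788). At chr9:3730844-3731222, 51 and 57 tags in the dark stood against 24 and 27. The site at chr1:16086405-16086779 had 44 and 43 tags in the dark and 22 and 21 at 24 h. At chr4:703581-703756, there were 48 and 46 tags in the dark and 24 and 23 at 24 h. The site at chr5:5462932-5463247 had 36 tags in each dark list and 18 and 19 at 24 h. These sites too were chosen for the difference, and all were called in both lists of 8 h, ABA and IAA.

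Kept sites beside a gained site had higher ratios than other kept sites. Scaled to kept sites, the median ratio, 24 h over dark, was 1.099 (1.07 to 1.12) at 323 kept sites within 1 kb of a gained site only, against 1.04 (1.03 to 1.04) at 13393 kept sites with no changed site within 1 kb. Of the first, 7.12% were at least 1.5 times higher and 0.929% at least 1.5 times lower. At 883 kept sites within 1 kb of a lost site only, the median ratio was 1.03 (1.01 to 1.04), which overlaps the value away from changed sites. Scaled to the floor, the ratio was 0.838 (0.813 to 0.856) beside gained sites, 0.784 beside lost sites and 0.792 (0.788 to 0.796) away from both, so that all were lower at 24 h. On both scales the interval beside gained sites lay above that of the other kept sites, and beside lost sites no difference was detectable. The densest windows held 48.0% of gained sites. Scaled to kept sites, the median ratio of all kept sites there was 1.08 (1.07 to 1.09), which the interval beside gained sites overlaps. Whether window density accounts for the higher ratio beside gained sites was not tested.

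Peaks at kept sites were narrower at 24 h. The median width was 245 and 252 bp in the dark lists and 232 and 219 bp in the 24 h lists. The median change per site was -17.75 bp (-19 to -16.5 bp), with 9166 sites (62.7%) narrower and 5403 (37.0%) wider. A peak ends where the pileup drops below the call limit, and that limit was higher in the 24 h lists. At the 807 sites with a mean of 50 tags or more, the median change was 1 bp. Sites that were at least 1.5 times higher were wider by a median of 27 bp, and those at least 1.5 times lower changed by -61 bp. At 82 kept sites the dark lists each had 1 peak and the 24 h lists each had at least 2, and at 103 kept sites the reverse was found.

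The summits of kept sites moved by a median of 22.5 bp between dark and 24 h (22 to 23 bp). The summits of the 2 lists of a group lay a median of 2 bp apart in the dark and 1 bp at 24 h. A move of 50 bp or more was seen at 25.2% of the sites, against 8.93% between the dark lists and 8.54% between the 24 h lists. The other groups of the series give a second measure. At 8547 sites with a single peak in each of the 10 lists, the median distance was 21 bp between dark and 24 h (20 to 21.5 bp), 21 bp between 8 h and 24 h, 21.5 bp between dark and 8 h and 26 bp between 24 h and ABA. The summits of dark and 24 h were therefore no further apart than those of any other pair of groups.

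**Figure D5:**
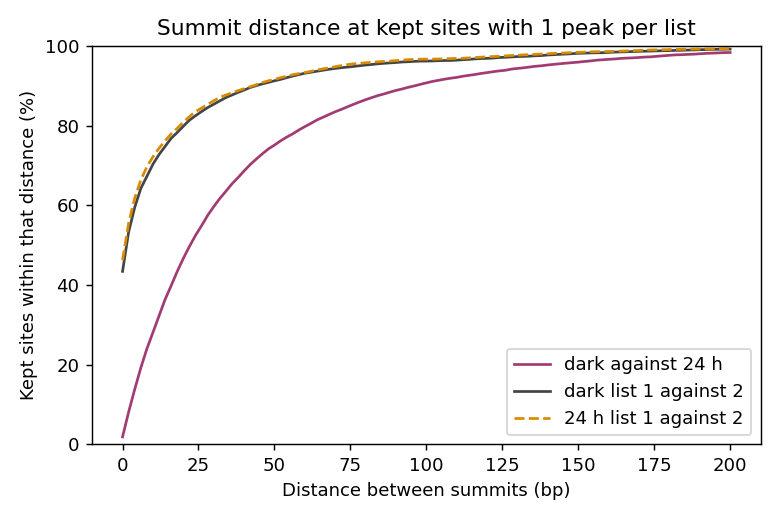
Share of the 14618 kept sites with a single peak in each list (vertical axis, percent) whose summits lie within a given distance (horizontal axis, bp). The curve between dark and 24 h reaches a median of 22.5 bp, and the curves between the lists of one group start at 43.4% and 46.2% on the same base.

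The distance between summits fell with the height of the site and rose with its width. It was 36 bp at sites with a mean under 20 tags and 6.5 bp at sites with 50 tags or more. At sites narrower than 200 bp it was 14 bp, and at sites of 500 bp or more 35 bp.

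Where the lists of each group lay within 20 bp of each other, the 5 largest distances were at sites 852 to 9009 bp wide, and they are given as a description with no test. The site at chr12:20519339-20528347 is 9009 bp wide and had 166 to 171 tags in every list, with summits 2626 bp apart between dark and 24 h. The move of 600 bp at chr2:28866472-28867323 went with a rise from 20 and 19 to 43 and 44 tags and with a width of 255 bp in the dark and 710 bp at 24 h. The site at chr8:8811905-8813048 fell from 28 and 27 to 16 tags in each list, its mean width went from 1139.5 to 216 bp, and its summit moved by 564 bp. At chr11:2744579-2745472, the move was 539 bp at 20 and 21 tags in the dark and 18 tags in each 24 h list. At chr8:10365976-10367347, it was 538 bp at 52 to 55 tags in all lists. At the chromosome 12 site and the last chromosome 8 site, the summit moved with little change in height scaled to kept sites (ratios of 1.00 and 0.937). Scaled to the floor, their ratios were 0.766 and 0.714. At the chromosome 2 site the move came with a rise on both scales (2.19 and 1.67).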

How the data were processed

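Reads were processed by the authors, who trimmed the 3′ ends, aligned with Bowtie2 2.3.2 to MSU7.0, filtered with SAMtools 1.9 and ran MACS2, with 1 list deposited for each library. No Tn5 shift was described, and the control behind the calls is not given in the sources used here. The solved backgrounds of the lists follow one common profile. The genome is of a japonica cultivar, the seedlings are indica. The deposited lists give each peak's position and summit, the fold over background (a ratio), and the −log10 of the p-value and of the q-value. The deposited score column was not used.

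Each fold and −log10 p was solved for a whole-number pileup and a local background, which returned the deposited −log10 p to within 0.0002. The code was tested on simulated data and recovered what was planted. Sites were merged at 1 bp of overlap. Coordinates are 1-based. The members and lists were chosen with earlier results of these data known. Sites named in the text follow a rule: the 8 strongest gained and lost sites by the lower −log10 q, the 5 largest rises and falls in height among kept sites of at least median pileup, the 5 largest summit moves where lists of a group agree within 20 bp, the 3 widest changed sites of each kind, the 3 windows of 1 Mb with most changes and the longest runs. The neighbours of these sites were chosen after their values were seen. Window groups use sites on 12 chromosomes. No gene was assigned, because the gene table at hand is of another assembly. DiffBind, with which the authors tested differences, needs reads and was not used here. Analyses used Python with numpy 2.4.6, pandas 2.3.3 and scipy 1.17.1. Alternatives are given in the closing section.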

Additional observations from a re-analysis of the deposited data

How the results depend on the processing

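No paired analysis was possible because the results come from no test. Limits of 1.5 times the call need, heights of 1.5 times the limit, windows ranked within chromosomes, the common height at each site's own background and windows ranked on the dark lists were alternatives added once the data were known. Peak lists hold no reads, so a site without a call is not shown to be closed.

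The share of lost sites was 78.8% at a common relative height scaled to the median pileup, 74.0% and 83.6% at each site's own background by the median pileup and by the floor, 78.9% when a list's peaks had to cover 50% of a site, 78.4% with summits matched within 200 bp and 77.4% with presence in either list, where 2480 sites were gained. At a limit of 1.5 times the call need, 2167 sites were gained, 1991 lost and 8125 kept with the median pileup (47.9% lost), and 471 were gained and 7806 kept with the floor (93.3% lost). With heights of 1.5 times the limit in one group and under it in the other, 406 were gained and 829 lost with the median pileup (67.1% lost), and 176 and 2575 with the floor (93.6% lost). Lists of equal length gave 2763 gained and 2909 lost sites (51.3% lost), a near balance that equal lengths bring about. They also gave 4.61% of gained and 15.6% of lost sites in the sparsest windows, distances of 5612 and 7783 bp from gained and lost sites to kept sites, a summit distance of 20.5 bp and a height change at 4.32% of kept sites. With −log10 q of at least 5, these were 13.6% of lost sites, 6156 and 7715 bp, 20 bp and 4.06%. Windows of 500 kb put 5.05% of gained sites in the sparsest group, and windows ranked within each chromosome put 8.49% of gained and 14.5% of lost sites there. Scaling to the floor gave a height change at 21.5% of kept sites. Gained sites were less frequent than lost sites in the sparsest windows, and closer to kept sites, under each of these alternatives that was run on them.

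With each list left out once, there were 1652 to 2290 gained, 6356 to 7690 lost and 15410 to 16384 kept sites, and a lost share of 73.5% to 82.3%, with the most gained sites and the lowest share without the second 24 h list. The sparsest windows then held 5.84% to 6.68% of gained and 11.76% to 12.002% of lost sites. Gained and lost sites lay 3533 to 3907 bp and 5108.5 to 5407 bp from kept sites. The width change at kept sites was -24 to -14 bp, the summit distance 23 to 23.5 bp and the share with a height change 6.09% to 6.80%.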
